A study of Tulipa gesneriana with 15 samples.

Results

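Full blooming was compared with partial blooming by RNA sequencing of whole garden tulip flowers (Tulipa gesneriana). These are 6 of the 15 libraries of a series that follows the flower through 5 stages, with 3 libraries per stage. The groups used here are full blooming and partial blooming, and, to follow the course of the changed genes, buds before them and early and late senescence after them. All 15 libraries are labelled as wild type and as flower tissue; the sources used here name no cultivar, plant age or treatment. Whether libraries of a stage come from different plants is not stated, and p-values then measure only how far these libraries spread, which may be technical. Genes at 1 FPKM (fragments scaled by the length of the feature and the size of the library) or more in at least 3 of the 6 libraries were compared, which left 39168 of the 76388 identifiers in the table.

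A tulip flower opens as the cells of its tepals, the petal-like organs of the perianth, take up water and expand. Tulip tepals also open and close with temperature while the flower is alive, and after full bloom they wilt as cell contents are broken down and nutrients are moved out. Each library holds RNA of all floral organs together, so fewer cells of a type and less RNA per cell cannot be told apart in any result below. The table pairs none of its identifiers with a gene name, function, position or sequence. The genes are therefore described by their levels and courses, floral organ markers could not be checked, and 4 genes are given by identifier only. It is not stated whether some identifiers are copies or transcripts of the same gene.

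Full blooming held 2 libraries close to each other and 1 apart. Replicates 1 and 2 of full blooming correlated with each other at 0.96 (Pearson, log2(FPKM + 1), across the tested genes, which are not independent replicates). The third replicate correlated with them at 0.87 and 0.86. With partial blooming replicates 1 to 3 it correlated at 0.85, 0.91 and 0.92. That averaged 0.89, against 0.92 for full blooming replicate 1 and 0.90 for replicate 2. With buds it averaged 0.86, against 0.77 for full blooming replicate 1 and 0.76 for replicate 2. The median within-stage SD of a gene was 0.32 log2 units over the 3 full blooming libraries, 0.14 over full blooming replicates 1 and 2, and 0.20 over the 3 partial blooming libraries. The comparison is therefore given with and without full blooming replicate 3.

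**Figure D1:**
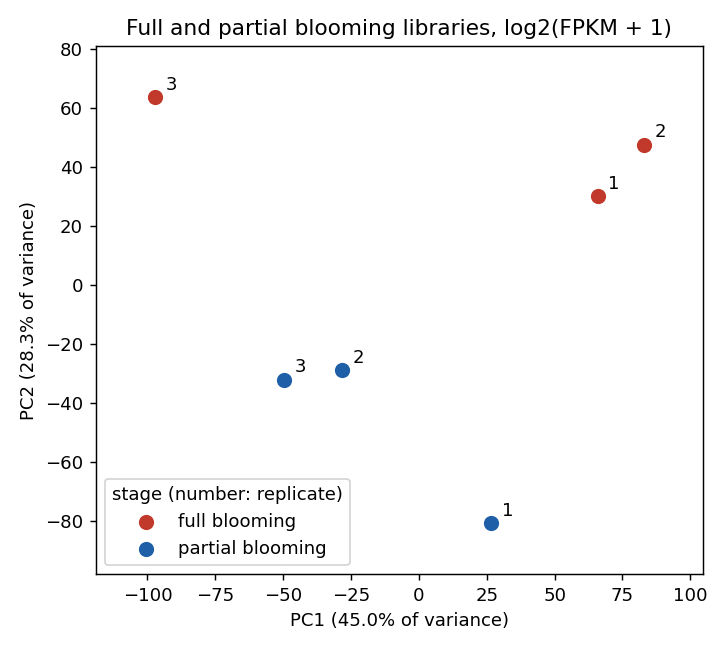
Principal components of the 3 full blooming and 3 partial blooming libraries on log2(FPKM + 1) over the 39168 tested genes; each point is a library and its number is the replicate. The first component (45.0% of the variance) sets full blooming replicate 3, at -97.4, opposite full blooming replicates 1 and 2, at 65.8 and 83.0, and the second (28.3%) has all full blooming libraries at 30.2 or higher and all partial blooming libraries at -28.8 or lower.

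With all 6 libraries, expression of 515 genes was higher and of 379 genes lower in full than in partial blooming (limma, adjusted p under 0.05, fitted over all 15 libraries). These are 1.31% and 0.968% of the genes tested, and 2.28% together. Higher genes had a median change of 1.23 on the log2(FPKM + 1) scale, and lower genes one of -1.21. The change was 1 log2 unit or more in 354 higher and 258 lower genes, and 3 or more in 22 and 20. At an unadjusted p under 0.05, 2896 genes were higher and 3176 lower. All 3 full blooming libraries lay above all 3 partial blooming libraries in 9.44% of tested genes and below them in 11.3%. Calls were more frequent among abundant genes: 5.80% of the genes at a mean of 50 FPKM or more over the 6 libraries were called, 2.74% of those from 5 to 50, and 1.35% of those under 5. Without full blooming replicate 3 these were 21.3%, 9.36% and 5.07%. Any single library of these 6 moved the counts. Leaving out full blooming replicate 1 gave 284 higher and 220 lower genes, and leaving out full blooming replicate 2 gave 211 and 153. Leaving out partial blooming replicate 1 gave 268 and 158, replicate 2 of that stage 358 and 204, and replicate 3 of that stage 289 and 170. Late senescence replicate 2 enters through the shared spread, and its removal gave 636 higher and 608 lower genes. On the 6 libraries alone the test called 118 higher and 84 lower genes.

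Once full blooming replicate 3 was left out, 1201 genes passed the test as higher and 1989 as lower in full blooming (limma, adjusted p under 0.05). These are 3.07% and 5.08% of the genes tested, and 8.14% together. These lists held 504 of the 515 higher genes, or 97.9% of the list with all libraries and 42.0% of the list without replicate 3. They also held 366 of the 379 lower genes, or 96.6% and 18.4% of the same lists. No gene was called in opposite directions. Both fits share all libraries but full blooming replicate 3, so neither this nor the overlap is independent agreement. Without replicate 3, higher genes had a median change of 0.98 log2 units and lower genes one of -1.04. A change of 1 log2 unit or more was seen in 587 higher and 1060 lower genes. Which list was larger depended on the scaling of the libraries. As deposited, 37.6% of the calls were higher and the median of all tested genes was -0.14. With median-ratio scaling, 64.0% of the calls were higher (2481 higher, 1398 lower) and that median was 0.02; with quantile normalization, 56.8% were higher (2057 higher, 1567 lower) and it was 0.01. Leaving out a further library gave 427 higher and 632 lower genes without full blooming replicate 1 and 237 and 304 without full blooming replicate 2, where the lone full blooming library left is assumed to vary like the other groups. Removing partial blooming replicate 1 as well gave 900 higher and 2188 lower genes, a longer list of lower genes. Removing partial blooming replicate 2 as well gave 847 and 1073, and removing partial blooming replicate 3 as well gave 673 and 835.

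The fit without full blooming replicate 3 did not use its levels, but it was 1 of the 6 libraries in the filter that set which genes were tested. With it kept out of the filter as well (1 FPKM or more in at least 3 of the other 5 libraries, 36996 genes; chosen after seeing the data), 1177 genes (3.18%) were called higher and 2041 (5.52%) lower. Under that filter replicate 3 lay above all 3 partial blooming libraries in 76.0% of the higher genes, against 44.4% of all genes so tested, and below them in 36.1% of the lower genes, against 25.5%. The fit also used the 3 partial blooming libraries against which replicate 3 is set here and in the lower genes. Genes with low values there are called higher more easily, and genes with high values lower. This by itself can raise such shares and distances above those of all tested genes. The values that follow are for the 39168 genes. In the median higher gene, full blooming replicate 3 lay between partial blooming and full blooming replicates 1 and 2. In the 1201 higher genes it lay above all 3 partial blooming libraries in 936, or 77.9%, against 46.1% of all tested genes. Its median distance from the partial blooming mean was 0.46 log2 units in these genes and 0.15 in all tested genes. In the median gene it covered 48.5% of the way from the mean of partial blooming to the mean of full blooming replicates 1 and 2 (quartiles 23.2% and 72.4%).

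In the median lower gene, full blooming replicate 3 stayed near partial blooming, but the genes differed widely. It covered -11.0% of the way from the partial blooming mean to the mean of replicates 1 and 2 (quartiles -51.8% and 37.6%). Negative values lie on the opposite side of the partial blooming mean. It lay below all 3 partial blooming libraries in 708 of the 1989 lower genes, or 35.6%, against 24.1% of all tested genes. Its median distance from the partial blooming mean was 0.11 log2 units, against 0.15 in all tested genes. This is on the opposite side from the change in replicates 1 and 2, and 1119 of these genes, or 56.3%, lay on that opposite side. As plain shares, higher and lower genes differed less after scaling. With median-ratio scaling replicate 3 lay beyond partial blooming in 49.7% of higher and 38.9% of lower genes. The shares of all tested genes were 32.7% and 35.0%. With quantile normalization replicate 3 did so in 66.5% and 40.1%, against 34.5% and 33.4% of all tested genes. Measured from the shares of all tested genes, higher and lower genes differed less with median-ratio scaling but not with quantile normalization. When any other of the 6 libraries was left out, that library lay beyond the other stage in 96.5% to 100% of the genes called without it. Those genes were called with full blooming replicate 3 in the fit and are another set. The libraries of the other stage took part in those calls too.

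**Figure D2:**
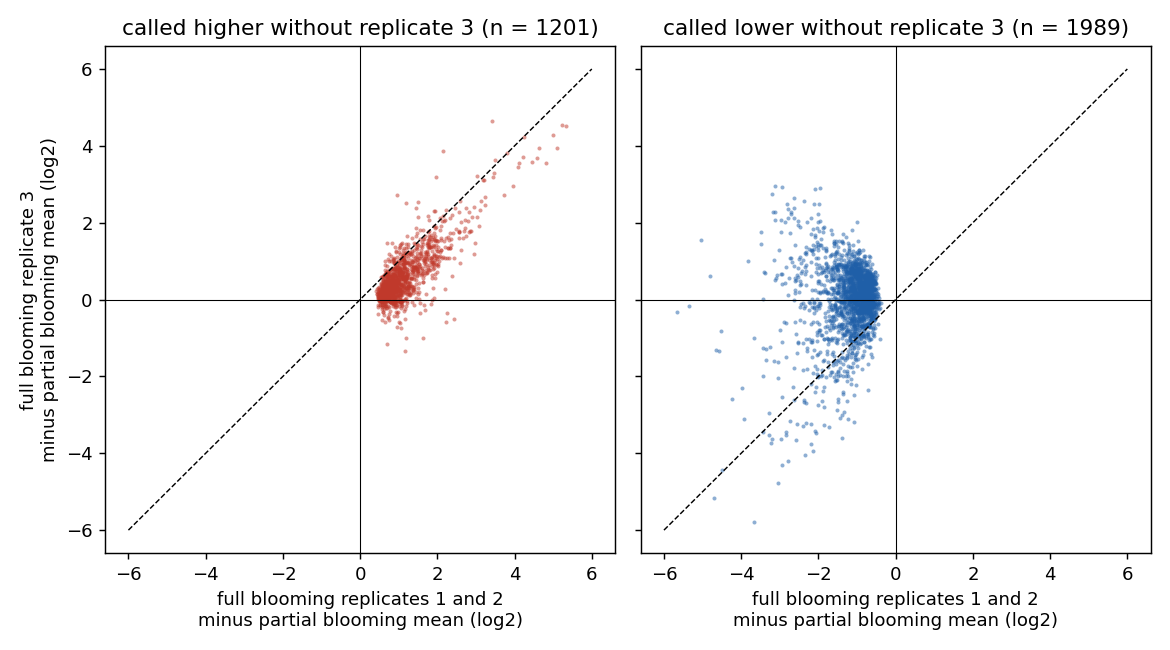
Each point is a gene called without full blooming replicate 3, with the log2 difference of full blooming replicates 1 and 2 from the partial blooming mean on the x axis and that of full blooming replicate 3 on the y axis; the dashed line marks equal differences. Of the 1201 higher genes (left), 1063 are above 0 on the y axis, and of the 1989 lower genes (right), 870 are below 0.

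The called genes were then followed through the 9 libraries of the other stages, which are not part of the full against partial blooming difference and enter its test only through the shared spread. A gene with a small shared spread is called more easily in every comparison, in either direction. This by itself can raise the shares called above those of all genes tested. Genes higher in full blooming had median levels above those of buds and partial blooming in both senescence stages. Over the 515 genes called with all libraries, the median of the stage means was 1.84 log2 units in buds and 2.75 in partial blooming, and then 4.13 at full bloom, 4.40 in early and 4.28 in late senescence. In early senescence against buds, 414 of them (80.4%) were called higher and 26 (5.05%) lower, against 17.8% and 28.9% of all genes tested (limma, adjusted p under 0.05). Their median change in that comparison was 2.01, against -0.22 over all tested genes. In late against early senescence, 77 were higher and 150 (29.1%) lower, against 18.1% and 11.6% of all genes tested. The other 288 were not called there, which does not show that they stayed level.

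Their peak was not always at full bloom. Early senescence had the highest mean for 207 of the 515 genes (40.2%, against 14.5% of all tested genes) and late senescence for 123 (23.9%, against 28.4%). Full blooming had it for 178 and buds for 7, which the choice of genes higher in full blooming bears on. Without full blooming replicate 3, full blooming had the highest mean for 544 of the 1201 higher genes, or 45.3%, early senescence for 389 (32.4%, against 13.9% of all tested genes) and late senescence for 258 (21.5%, against 28.1%). The lowest mean was in buds for 363 of the 515 genes (70.5%, against 19.2% of all tested genes) and in partial blooming for 114. The largest single course was higher in early senescence than in buds with no call between early and late senescence, which 230 genes (44.7%) took, against 11.2% of all tested genes. Another 136 (26.4%, against 5.09% of all tested genes) were called higher in early senescence and then lower in late senescence.

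Genes lower in full blooming had median levels below those of buds in both senescence stages. Over the 379 genes, the median of the stage means was 3.96 log2 units in buds and 4.15 in partial blooming, and then 2.72 at full bloom, 2.39 in early and 2.72 in late senescence. In early senescence against buds, 259 (68.3%) were called lower and 45 (11.9%) higher, against 28.9% and 17.8% of all genes tested. Partial blooming had the highest mean for 180 of these genes (47.5%, against 13.4% of all tested genes) and buds for 147 (38.8%, against 34.3%), while late senescence had it for 36 and early senescence for 16. The choice of genes higher in partial blooming bears on the first of these. The share for buds was near that of all tested genes. In late against early senescence, 94 were higher and 64 lower (24.8% and 16.9%, against 18.1% and 11.6% of all genes tested). A small shared spread can raise both of these shares.

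The lower genes called without full blooming replicate 3 mostly had their highest mean in buds. Of the 1989 lower genes called without it, buds had the highest mean for 1391 (69.9%) and partial blooming for 353 (17.7%), against 34.6% and 12.8% of all genes tested. In early senescence against buds, 1694 (85.2%) were lower, against 32.2% of all genes tested in that fit. In late against early senescence, 1099 (55.3%) were higher and 130 lower, against 22.5% and 13.1% of all genes tested. In 1041 of them (52.3%) the gene was called lower in early senescence than in buds and higher again in late senescence, a course found in 12.9% of all tested genes. Among the 1201 higher genes called without it, 975 (81.2%) were higher in early senescence than in buds, against 18.7% of all genes tested, and 434 (36.1%) were lower in late than in early senescence, against 13.1%. Among lower genes, the share higher in late than in early senescence, 24.8% with all libraries, was 14.5% without full blooming replicate 1 and 15.3% without partial blooming replicate 3.

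**Figure D3:**
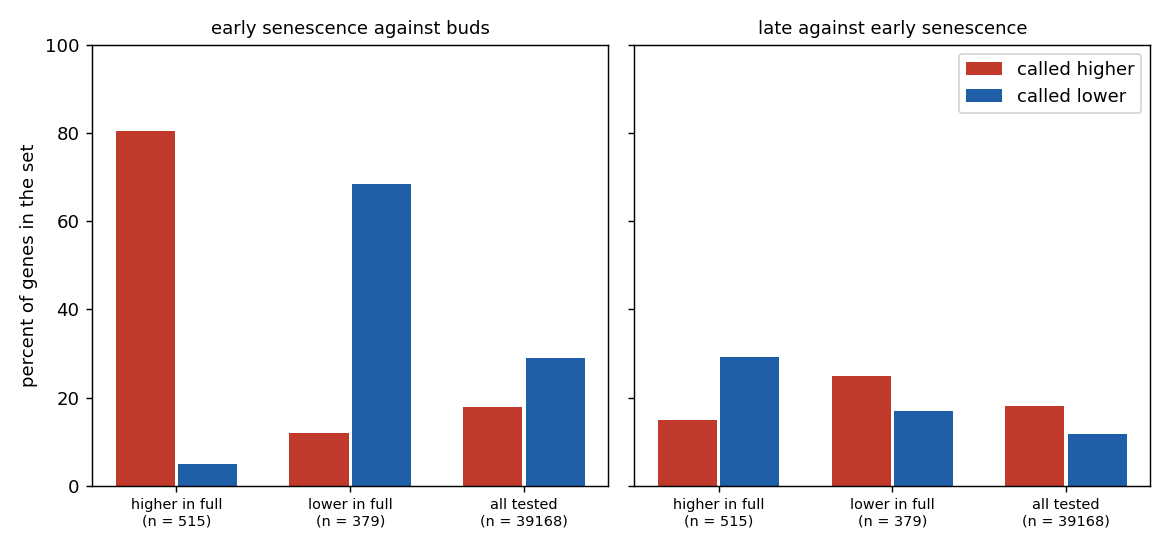
Bars give the percent of genes called higher (red) and called lower (blue) by limma in early senescence against buds (left) and in late against early senescence (right), for genes higher in full blooming (n = 515), genes lower in full blooming (n = 379) and all tested genes (n = 39168). In early senescence against buds, 80.4% of the first set are called higher and 68.3% of the second set lower.

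**Figure D4:**
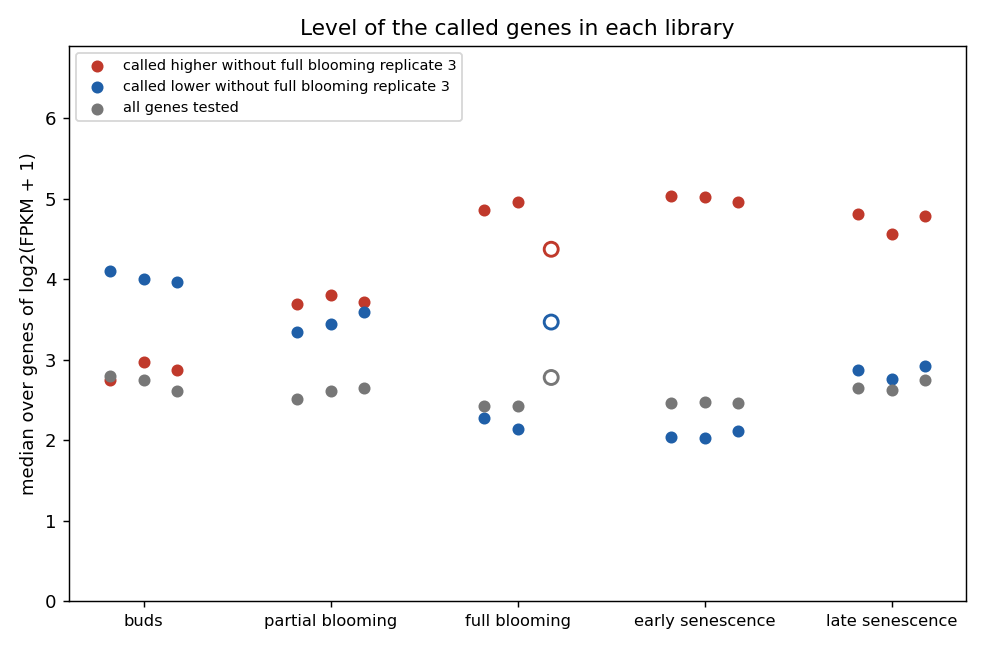
Each point is the median of log2(FPKM + 1) over a set of genes in 1 library, with the stages in order on the x axis; open circles mark full blooming replicate 3, which was used in the filter on low values but not in the fit that called the sets. In the genes called lower, full blooming replicates 1 and 2 are at 2.28 and 2.14 and replicate 3 at 3.47, beside 3.34 to 3.60 in partial blooming.

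As a share of all expression, which describes size and is no test since the genes were chosen by these values, the 515 higher genes took up 6.70% ± 1.15 (SD, n = 3) of all FPKM in full blooming and 2.65% ± 0.200 in partial blooming. Their share was 1.25% ± 0.0869 in buds, 10.9% ± 0.593 in early and 9.40% ± 1.36 in late senescence. The lowest share of its stage was that of full blooming replicate 3, at 5.38%, against 7.21% and 7.51% in replicates 1 and 2. The 379 lower genes took up 1.04% ± 0.101 in full blooming and 2.97% ± 0.243 in partial blooming.

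The 4 genes described singly are the 2 that rose most and the 2 that fell most among genes called both with and without full blooming replicate 3, with no overlap between the stages and a mean of at least 10 FPKM in the higher stage; 323 rises and 238 falls met these terms. F01.PB303 was at 340, 451 and 222 FPKM in full blooming replicates 1 to 3, against 5.83, 10.1 and 11.5 FPKM in partial blooming replicates 1 to 3. As the choice required, the full blooming libraries did not overlap with partial blooming, and replicate 3 was the lowest of them. Its log2 change was 5.05 ± 0.35 (SE), at an adjusted p of 8.28e-06 from limma, and 5.32 ± 0.37 without full blooming replicate 3. It was at 1.61, 1.52 and 0 FPKM in buds and averaged 553 ± 23.0 (SD, n = 3) in early and 358 ± 38.4 in late senescence. It was thus higher in early senescence than in buds by 8.21 ± 0.35 log2 units (limma adjusted p of 3.93e-09).

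F01.PB47745 was at 215, 173 and 119 FPKM in full blooming, against 3.30, 10.4 and 3.71 FPKM in partial blooming. Full blooming replicate 3 was again the lowest of its stage. The log2 change was 4.75 ± 0.33 (SE), at an adjusted p of 8.28e-06 from limma. Buds were at 0, 0.46 and 0.47 FPKM, early senescence at 138 ± 12.3 (SD, n = 3) and late senescence at 93.5 ± 14.3. For this gene full blooming had the highest mean of the 5 stages, at 169 ± 48.5 FPKM, while for F01.PB303 early senescence did.

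F01.PB7170 was at 0.93, 0.92 and 0.42 FPKM in full blooming, against 66.7, 37.3 and 48.6 FPKM in partial blooming. Replicate 3 was not nearer to partial blooming in this gene but the lowest full blooming library. All full blooming values were under the 1 FPKM of the filter, so their order is uncertain. The log2 change was -4.86 ± 0.35 (SE), at an adjusted p of 1.15e-05 from limma. Buds were at 67.3, 138 and 242 FPKM, and early senescence at 0.147 ± 0.0681 (SD, n = 3). In late senescence it is listed at 0 in replicates 2 and 3 and was at 0.04 FPKM in replicate 1.

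F01.PB2993 was at 0.68, 0.48 and 0.65 FPKM in full blooming, against 35.9, 34.9 and 32.9 FPKM in partial blooming. The 3 full blooming libraries lay close together here, all under the 1 FPKM of the filter. The log2 change was -4.47 ± 0.24 (SE), at an adjusted p of 1.22e-06 from limma. It was at 21.9, 30.9 and 14.7 FPKM in buds, at 0, 0.14 and 0.17 in early senescence and at 0, 0 and 0.54 in late senescence. Against early senescence, late senescence differed by 0.07 ± 0.24 log2 units, with a limma adjusted p of 0.848.

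**Figure D5:**
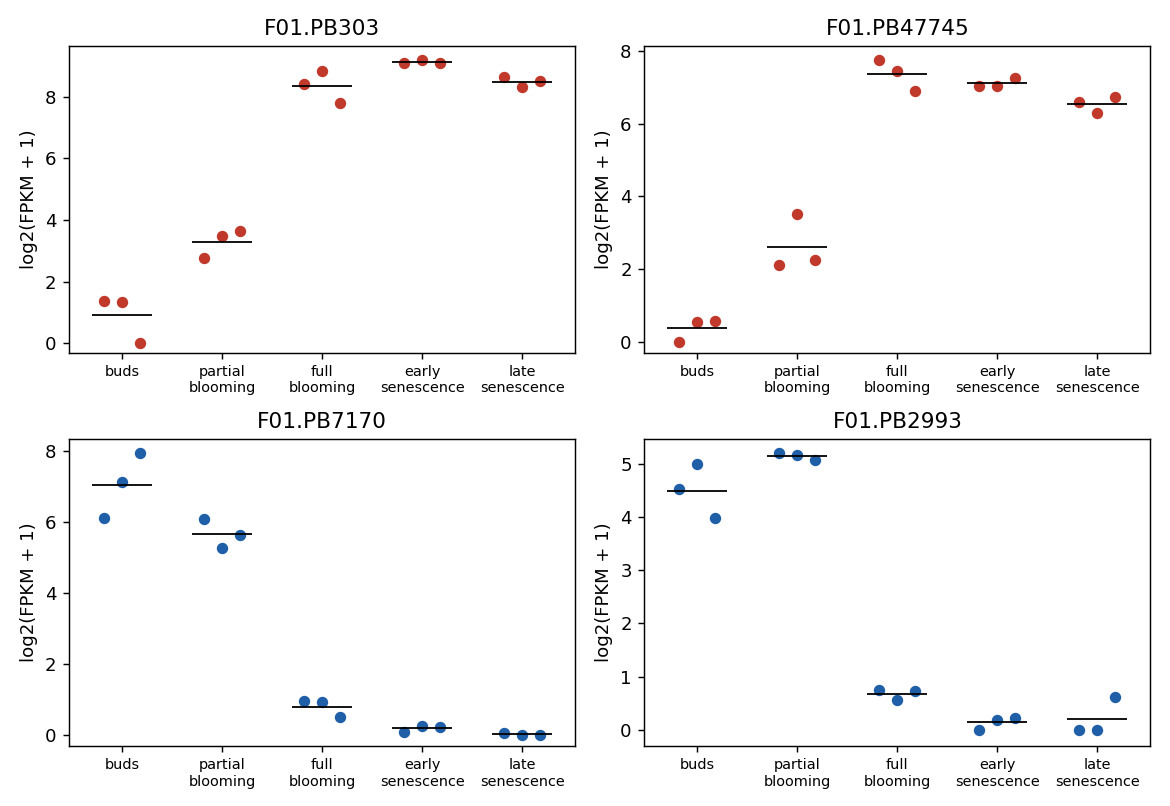
log2(FPKM + 1) of 4 genes in all 15 libraries, with the stages in order on the x axis, replicates 1 to 3 from left to right within a stage, and lines at the stage means. F01.PB303 and F01.PB47745 (red) are higher in every full blooming library than in every partial blooming library, and F01.PB7170 and F01.PB2993 (blue) are lower. All 4 were chosen for such separation.

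Few genes were seen in 1 of the 2 stages only. In the whole table, 28 genes were at 1 FPKM or more in all 3 full blooming libraries and under 0.1 in all 3 of partial blooming, and 10 genes showed the reverse. Leaving out any 1 of the 6 libraries, which makes the rule easier to meet, gave 43 to 76 and 16 to 51 genes. With full blooming replicate 3 out, the counts were 67 and 51. Of those 67 genes, replicate 3 was at 1 FPKM or more in 28 and under 0.1 in 34. Of the 51 genes at 1 or more in partial blooming and under 0.1 in full blooming replicates 1 and 2, replicate 3 was at 1 or more in 37 and under 0.1 in 10. An exact 0 can be a failed estimate: 292 genes were listed at 0 in 1 full blooming library beside at least 10 FPKM in another, and 140 in partial blooming. None of the 894 genes called with all 6 libraries was of that kind in either stage (0 genes). Such a gap within a stage widens the spread of a gene and makes a call unlikely. The count therefore does not show that the calls are free of failed estimates.

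Over whole libraries, full and partial blooming differed by less than the spread of full blooming in the number of genes seen and in the weight of the most abundant genes. Genes at 1 FPKM or more numbered 35738, 35765 and 41044 in full blooming replicates 1 to 3, against 36674, 38693 and 38990 in partial blooming (exact two-sided permutation test, p = 0.8, n = 3 each; the smallest p that 3 against 3 libraries allow is 0.1). The 100 most abundant genes of a library held 22.5%, 23.0% and 18.6% of the summed FPKM in full blooming, against 18.9%, 20.1% and 19.1% in partial blooming (exact permutation p = 0.4). Among the 6, the most genes and the smallest such share were those of full blooming replicate 3. The difference of full minus partial blooming was -603 genes and 1.99 percentage points with it, and -2368 genes and 3.38 points when it was left out (exact permutation p = 0.2 and 0.1; the smallest p that 2 against 3 libraries allow is 0.1). Summed FPKM was 912931 ± 17994 in full blooming and 881428 ± 18050 in partial blooming (SD, n = 3 each; exact permutation p = 0.1), and all 3 full blooming libraries lay above all 3 of partial blooming.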

How the data were processed

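Total RNA of whole flowers was sequenced by the submitters, who deposited 1 table of FPKM values with a column per library. The unit is read from the table's name and its values, which are not whole numbers. The submitters' processing notes name DESeq 1.18.0, HTSeq 0.6.1, TopHat2 2.0.12 and Bowtie2 2.2.3, in no stated role or order; reference, annotation and filters: not given in the sources used here. Columns were matched to libraries by the code in the labels. Low values fell on no whole steps, so depth is unknown and counting intervals are left out. The FPKM of a library summed to between 861035 and 933567 over the 6 libraries, and no pair of libraries was identical.

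limma 3.58.1 in R 4.3.3 was run on log2(FPKM + 1) with a variance trend, two-sided, over all 15 libraries, with Benjamini-Hochberg adjustment over the 39168 genes tested; such fold changes understate those of low genes. The script was tested on simulated data. Alternatives were another pseudocount (0.1), no filter, a stricter one (5 FPKM) or one that left out full blooming replicate 3, median-ratio scaling, quantile normalization, the 6 libraries alone, library quality weights, no trend, a replicate block and leaving out libraries. Named genes were chosen by size of change, as stated with their values. The comparison, its rules and lists were chosen with earlier results of these data known; no gene list could be matched to the identifiers.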

Additional observations from a re-analysis of the deposited data

How the results depend on the processing

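Alternatives gave 320 values. Of these, 271 stayed on their side of the threshold, within 1.5 times the reported count or share, or, for library measures, within the spread. The other 49 moved. A reversal could be recorded only for the 4 genes described singly, where there were 0. A change in which list was larger, higher or lower, was not counted as one. The 4 genes described singly kept their direction and an adjusted p under 0.05 (limma) in each alternative run for them. They were chosen for the largest changes in these same libraries, so this is no independent test. Causes of the shifts were not tested, except that genes seen in 1 stage only are found more easily in fewer libraries. On the 6 libraries alone, 118 genes were higher and 84 lower. With library quality weights, which gave full blooming replicate 3 a weight of 0.184, 2665 were higher and 5017 lower, and 49.5% of the lower genes were higher in late than in early senescence, against 24.8% as reported and 16.3% with no filter. Without full blooming replicate 3, median-ratio scaling gave 2481 higher genes, quantile normalization 2057, and quality weights 2677 higher and 5864 lower. With median-ratio scaling full blooming replicate 3 lay above partial blooming in 49.7% of the higher genes called without it. At 2 FPKM or more, 10 genes were seen in full blooming only and 5 in partial blooming only.

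Leaving out 1 library gave 211 to 1201 higher and 153 to 1989 lower genes, and 237 to 900 and 304 to 2188 when full blooming replicate 3 was out as well. Of the higher genes, 75.4% to 87.7% were higher in early senescence than in buds and 20.6% to 38.9% lower in late than in early senescence; of the lower genes, 63.6% to 85.2% were lower and 14.5% to 55.3% higher. Genes seen in 1 stage only numbered 43 to 76 (full) and 16 to 51 (partial). Without full blooming replicate 3, buds had the highest mean for 69.9% of lower genes and partial blooming for 17.7%.

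What the replicate numbers mark is not stated, and the libraries were not treated as paired. Deviations of same-numbered full and partial blooming libraries correlated at 0.28, -0.09 and 0.40. Full blooming replicate 2 correlated best with partial blooming replicate 1, at 0.34. With 3 libraries per stage such values are not independent, so they cannot decide whether the numbers pair the libraries. With a replicate block 408 genes were higher and 297 lower, and without full blooming replicate 3 these were 827 and 1201.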

Other observations

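More genes lay far above the rest of their stage in full blooming replicate 3 than in any other of the 6 libraries. In 942 tested genes full blooming replicate 3 was at least 2 log2 units above both replicates 1 and 2. In 104 genes it was as far below them. In each case replicates 1 and 2 were within 1 log2 unit of each other. For the other full blooming and the partial blooming libraries, counted in the same way, 27 to 51 genes were above and 56 to 297 below, the 297 in partial blooming replicate 1. Since these genes were chosen by their values in full blooming, their levels there are given as a description and nothing is read from them. Genes under 1 FPKM in replicates 1 and 2 passed the filter only through replicate 3 and partial blooming. Their partial blooming levels are a description too. In the 942 genes the median level was 4.27, 3.84 and 2.77 log2 units in buds replicates 1 to 3, and 1.25, 2.59 and 3.00 in those of partial blooming. Full blooming replicate 3 was at 3.94, against 0.71 and 0.61 in replicates 1 and 2. It was 0.51, 0.58 and 0.64 in early senescence and 2.69, 2.14 and 2.59 in late senescence. In early senescence against buds, 629 of the 942 (66.8%) were called lower, against 28.9% of all genes tested, and in late against early senescence 310 (32.9%) were called higher, against 18.1% (limma, adjusted p under 0.05). Of the 104 genes below, 18 (17.3%, against 17.8% of all genes tested) were called higher and 8 (7.69%, against 28.9%) lower in early senescence than in buds. In late against early senescence 15 of them (14.4%, against 18.1%) were called higher and 8 (7.69%, against 11.6%) lower. Why this library differs was not tested.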
